A study of Mus musculus with 6 samples.

Results

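The miR-15/16 family is a group of mouse miRNAs whose 5p arms share a seed, the short stretch near the 5′ end that a miRNA uses to find its targets. Members were taken by name as the 5p arms of miR-15a, miR-15b, miR-16, miR-195a, miR-322, miR-497a and miR-503. Of these 7 names, 6 were listed among the 718 entries of the small RNA table, and mmu-miR-322-5p had no row and was not analysed here.

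The study profiled miRNAs in small extracellular vesicles (sEVs) shed by cultured mouse islets, to learn how sEV cargo differs when islets adapt to obesity. All donors were wild-type mice labelled C57/B6J, and no transgene or agent other than diet is given. The nid-sEV group held 3 libraries of sEVs from islets of mice on a normal chow diet (NCD), and the aid-sEV group held 3 libraries from islets of mice on a high-fat diet (HFD). HFD feeding ran for 9 weeks in the compensatory phase that the later experiments used, and the labels state no feeding time, age or number of pooled animals. Islets of both groups were kept for 48 h in serum-free medium, and 5 ng of sEV RNA went into each library. Levels are RPM, reads scaled to a common library total, and whole reads were recovered from them.

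miR-15/16 miRNAs are loaded into Argonaute and repress mRNAs with seed matches, and family members with the same seed can act on overlapping targets. They are best known as brakes on the cell cycle and on survival, through mRNAs such as Ccnd1, Ccne1 and Bcl2. In the mouse they are made from clusters: miR-15b with miR-16 inside Smc4, miR-15a with miR-16 inside Dleu2, miR-497a with miR-195a, and miR-322 with miR-503 on the X chromosome. No mRNA was measured in these libraries, so targets are background only.

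The mature sequences are shown because they define the family and because they decide how well reads of near-identical members can be told apart. They are RefSeq sequences on GRCm38.p6, written 5′ to 3′, with the seed (bases 2 to 8) in capitals.
mmu-miR-15b-5p: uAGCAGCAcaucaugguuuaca
mmu-miR-16-5p: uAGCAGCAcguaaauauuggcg
mmu-miR-15a-5p: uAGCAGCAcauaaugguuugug
mmu-miR-195a-5p: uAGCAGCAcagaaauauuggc
mmu-miR-497a-5p: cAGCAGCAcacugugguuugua
mmu-miR-503-5p: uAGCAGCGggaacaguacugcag
Of the 6 listed members, 5 carried the seed AGCAGCA, and mmu-miR-503-5p carried AGCAGCG. The seed AGCAGCA stood in 10 of 1679 mature names in the RefSeq table, and none of the names outside the family was listed here. The closest members were mmu-miR-16-5p and mmu-miR-195a-5p, which differed at 2 of 21 compared bases, the first at base 10. mmu-miR-15a-5p and mmu-miR-15b-5p differed at 4 of 22 bases, and mmu-miR-15b-5p and mmu-miR-16-5p at 8 of 22. How reads that match more than 1 member were assigned is not given in the sources used here, so the levels of the closest pairs carry that uncertainty.

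By the GENCODE M21 annotation of GRCm38, Mir15b lay at chr3:69009772-69009835 and Mir16-2 at chr3:69009902-69009996 on the plus strand, both inside the protein-coding gene Smc4, on its strand and clear of its exons. Mir15a at chr14:61632027-61632110 lay within the noncoding gene Dleu2 and clear of its exons, on the minus strand. Mir16-1 at chr14:61631880-61631972 lay in the same gene and overlapped an exon. Mir497 at chr11:70234717-70234800 and Mir195a at chr11:70235042-70235135 were neighbours on the plus strand with no host gene in this annotation. Mir503 at chrX:53053984-53054054 and Mir322 at chrX:53054255-53054349 were likewise neighbours without a host, on the minus strand. mmu-miR-16-5p has the same mature sequence from chromosome 3 and chromosome 14, so its level pools both loci.

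The libraries differed in depth with the groups. The nid-sEV libraries held 50534 to 129152 reads, while 122266 to 519315 were counted in aid-sEVs. A floor was set at 3 reads, which came to 23.2, 45.7 and 59.4 RPM in nid-sEV libraries 1, 2 and 3 and 5.78, 8.52 and 24.5 RPM in aid-sEV libraries 1, 2 and 3. Over all 718 entries the log2 fold change had a median of 1.11, which was -0.21 for the 219 entries seen in every library. The part of depth in these medians was not tested. nid-sEV library 1 and aid-sEV library 3 were of like depth, at 129152 and 122266 reads, and are set side by side below.

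miR-16 and miR-15b made up most of the family's reads in every library. miR-16-5p was the larger of the pair in each nid-sEV library and miR-15b-5p in each aid-sEV library. The exact permutation test of this ratio gave p = 0.10, the smallest that 3 against 3 libraries can give, so it could make no call. Of the other entries, 25.0% had a ratio to miR-16-5p that was higher in every aid-sEV library. No member passed the test for a difference in its own level.

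mmu-miR-16-5p, the most abundant member in nid-sEVs, is a cell cycle repressor found in many tissues and body fluids. It stood at 1936, 411 and 336 RPM (250, 27 and 17 reads) in nid-sEV libraries 1, 2 and 3, and at 514, 585 and 826 RPM (267, 206 and 101 reads) in aid-sEV libraries 1, 2 and 3. The aid-sEV values lay inside the span of the nid-sEV values, whose highest came from library 1 alone. The means were 894 ± 903 RPM (SD, n = 3) in nid-sEVs and 642 ± 164 RPM (SD, n = 3) in aid-sEVs. The log2 fold change on log2(RPM + 1) was -0.04 with an SE of 0.76 and an interval from -1.87 to 1.80 (limma adjusted p = 0.98). Its sign was positive without nid-sEV library 1, at 0.76 (limma adjusted p = 0.31), and after scaling by TMM factors, at 0.46.

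mmu-miR-15b-5p, made beside miR-16 in Smc4, a gene for a condensin subunit, stood at 643, 0 and 19.8 RPM (83, 0 and 1 reads) in nid-sEVs. In aid-sEVs it stood at 614, 1113 and 1709 RPM (319, 392 and 209 reads). nid-sEV libraries 2 and 3 were at or near 0, and nid-sEV library 1 lay just above the lowest aid-sEV library, so the groups overlapped. The means were 221 ± 365 RPM (SD, n = 3) and 1146 ± 548 RPM (SD, n = 3), a ratio of 5.19. The log2 fold change was 5.47 with an SE of 2.24 (limma adjusted p = 0.17), the largest among the members on this scale. It was 2.02 to 2.63 in the edgeR and DESeq2 fits of the recovered reads and 4.20 to 6.60 with 10 or 0.1 RPM added, so its size depended on how the library at 0 reads was treated. Without nid-sEV library 1 the log2 fold change was 7.85 (limma adjusted p = 0.022), so the call depended on this library. In the pair of like depth, miR-15b-5p had 83 reads in nid-sEV library 1 and 209 reads in aid-sEV library 3.

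mmu-miR-195a-5p and mmu-miR-497a-5p are made from a shared cluster and are known as growth-restraining miRNAs of muscle and other tissues. mmu-miR-195a-5p stood at 31.0, 107 and 158 RPM (4, 7 and 8 reads) in nid-sEVs and at 44.3, 19.9 and 40.9 RPM (23, 7 and 5 reads) in aid-sEVs. The highest 2 values were in nid-sEVs, nid-sEV library 1 lay among the aid-sEV values, and the log2 fold change was -1.26 with an SE of 0.87 (limma adjusted p = 0.36). mmu-miR-497a-5p stood at 15.5, 0 and 0 RPM (2, 0 and 0 reads) in nid-sEVs and at 25.0, 14.2 and 16.4 RPM (13, 5 and 2 reads) in aid-sEVs. All of its nid-sEV values lay under the floors of those libraries, and its aid-sEV library 3 value lay under the floor there, 24.5 RPM. nid-sEV library 1 lay above the lowest aid-sEV value. Its log2 fold change was 2.90 with an SE of 1.34 (limma adjusted p = 0.22), 1.39 to 1.80 in the edgeR and DESeq2 fits that tested it, and 4.25 without nid-sEV library 1 (limma adjusted p = 0.022). In the pair of like depth it had 2 reads in each library, so no difference was detectable there. The 2 products of this cluster had estimates of opposite sign, and the difference between them was not tested.

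The remaining members were at the edge of detection. mmu-miR-15a-5p, made with miR-16 from Dleu2, a noncoding gene often lost in chronic lymphocytic leukaemia, stood at 23.2, 0 and 0 RPM (3, 0 and 0 reads) in nid-sEVs and at 7.70, 2.84 and 0 RPM (4, 1 and 0 reads) in aid-sEVs. mmu-miR-503-5p, an X-linked relative with a cell cycle role, stood at 7.74, 0 and 0 RPM (1, 0 and 0 reads) in nid-sEVs and at 0, 8.52 and 0 RPM (0, 3 and 0 reads) in aid-sEVs. A difference between the groups was not detectable at this depth for either. Their log2 fold changes were 0.15 and 0.04 (limma adjusted p = 0.96 and 0.99), and both changed sign under other settings.

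**Figure D1:**
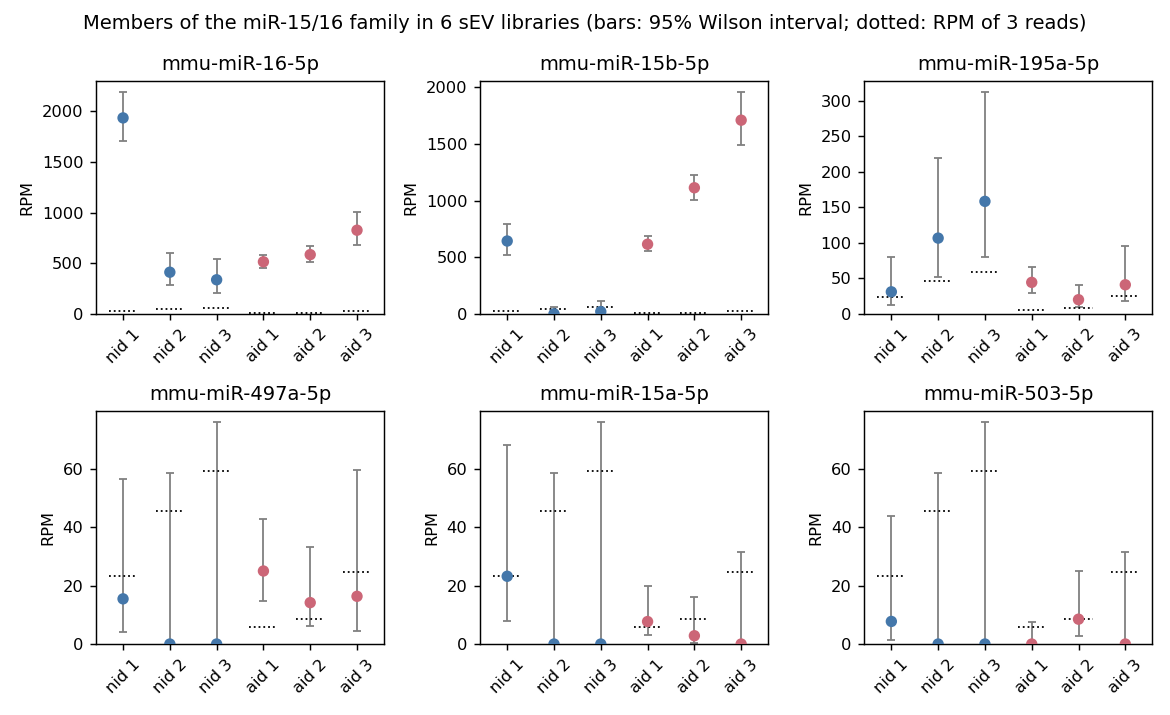
RPM (linear vertical axes, a scale for each panel) of the 6 listed members in nid-sEV libraries (blue) and aid-sEV libraries (red), with 95% Wilson intervals for counting error and dotted lines at the RPM of 3 reads. miR-15b-5p is at 0 and 19.8 RPM in nid-sEV libraries 2 and 3 and between 614 and 1709 RPM in aid-sEVs, while miR-16-5p spans 336 to 1936 RPM in nid-sEVs.

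Across the family, 0 of 6 members were called higher and 0 of 6 lower by limma (adjusted p below 0.05, log2 fold change beyond 1 either way). In all, 15.6% of the 718 entries were called higher and 1.81% lower. Only miR-15b-5p had an unadjusted p under 0.05, and the edgeR quasi-likelihood test, the edgeR exact test and DESeq2 on the recovered reads also called 0 members. Without nid-sEV library 1, 2 members were called higher, beside 150 of all 718 entries in that fit. No member had RPM values that did not overlap between the groups, against 24.2% of entries that were higher and 7.52% that were lower in every aid-sEV library. The 6 members had a median of 0.10 on the log2 scale, beside 1.11 over all entries. The summed level of the family was 2656, 518 and 515 RPM in nid-sEVs and 1205, 1743 and 2593 RPM in aid-sEVs. These sums overlapped, with means of 1229 ± 1235 RPM and 1847 ± 699 RPM (SD, n = 3 each). Left without miR-16-5p, the sum was 720, 107 and 178 RPM in nid-sEVs and 691, 1158 and 1767 RPM in aid-sEVs, and the groups again overlapped at nid-sEV library 1.

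The ratio of miR-15b-5p to miR-16-5p within a library does not depend on the scaling of that library. Together the pair made up 97.1%, 79.4% and 69.2% of the family's reads in nid-sEVs and 93.6%, 97.4% and 97.8% in aid-sEVs. Of the reads of the pair, miR-15b-5p took 24.9% in nid-sEV library 1, with a 95% Wilson interval from 20.6% to 29.8% over 333 reads. In nid-sEV library 2 it took 0 of 27 reads, with an interval up to 12.5%, and in nid-sEV library 3 it took 5.56% of 18 reads, with an interval from 0.988% to 25.8%. The nid-sEV values of libraries 2 and 3 thus rested on few reads. In aid-sEVs miR-15b-5p took 54.4% of 586 reads, 65.6% of 598 reads and 67.4% of 310 reads, with intervals of 50.4% to 58.4%, 61.7% to 69.3% and 62.0% to 72.4%. The mean share was 10.2% ± 13.1 in nid-sEVs and 62.5% ± 7.02 in aid-sEVs (SD, n = 3 each). The groups did not overlap, and no interval of an nid-sEV library reached that of an aid-sEV library. In the pair of libraries of like depth, the ratio of miR-15b-5p to miR-16-5p reads was 0.332 in nid-sEV library 1 and 2.07 in aid-sEV library 3.

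**Figure D2:**
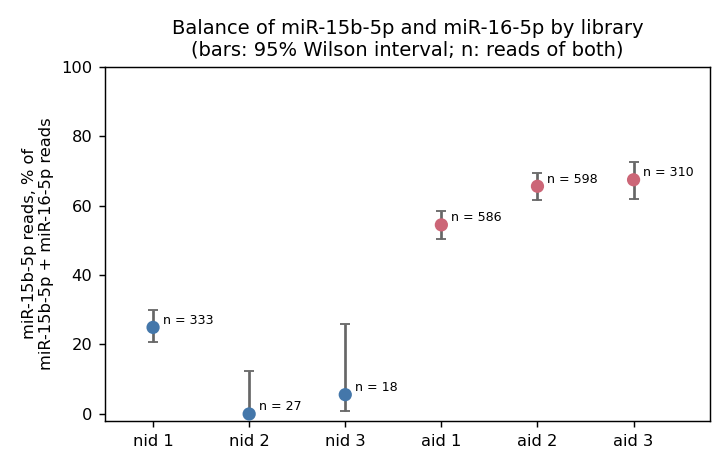
Share of miR-15b-5p (percent, vertical axis) among the reads of miR-15b-5p and miR-16-5p together in each library, with 95% Wilson intervals and the number of reads of both. The nid-sEV libraries (blue) lie between 0% and 24.9%, and the aid-sEV libraries (red) between 54.4% and 67.4%.

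On the log2 scale, with 1 RPM added, the ratio of miR-15b-5p to miR-16-5p was -1.59, -8.69 and -4.02 in nid-sEVs and 0.26, 0.93 and 1.05 in aid-sEVs. The difference of the means was 5.51 (two-sided exact permutation p = 0.10, the smallest that 3 against 3 libraries can give). Its Benjamini-Hochberg adjusted p over the 5 ratios of the family to miR-16-5p was 0.25 by the same exact test. Omission of single libraries gave differences from 3.55 to 7.10. With 10 or 0.1 RPM added in place of 1, the difference was 4.24 or 6.64, so its size depended on the added RPM. The ratio of miR-497a-5p to miR-16-5p was also higher in every aid-sEV library, by 2.94 (exact permutation p = 0.10, adjusted 0.25), but its nid-sEV reads were 2, 0 and 0. The ratios of miR-195a-5p, miR-15a-5p and miR-503-5p to miR-16-5p overlapped between the groups, with differences of -1.23, 0.19 and 0.077 (exact permutation p = 0.50, 0.90 and 1.0). Thus 2 of 5 ratios were higher in every aid-sEV library and 0 of 5 lower. Of the 717 other entries, 25.0% had a ratio to miR-16-5p that was higher in every aid-sEV library and 3.49% one that was lower.

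Each hairpin also yields a 3p arm with another seed, which the choice of members did not use. The 3p arms are shown because 1 of them was the only call in these hairpins by limma over all 6 libraries. Bases 2 to 8 are again in capitals, and the sequences are from RefSeq on GRCm38.p6.
mmu-miR-15a-3p: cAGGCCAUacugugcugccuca
mmu-miR-15b-3p: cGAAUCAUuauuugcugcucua
mmu-miR-195a-3p: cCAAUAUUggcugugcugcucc
mmu-miR-16-1-3p: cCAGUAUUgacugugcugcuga
Of 8 such arms named, 6 were listed. One of them, mmu-miR-15a-3p, was called higher in aid-sEVs by limma and none lower, beside 15.6% and 1.81% of all entries. Those higher in every aid-sEV library were miR-15a-3p, miR-15b-3p and miR-195a-3p, which is 3 of 6 arms beside 24.2% of entries.

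mmu-miR-15a-3p had no read in any nid-sEV library and stood at 69.3, 45.4 and 65.4 RPM (36, 16 and 8 reads) in aid-sEVs. It was called higher in aid-sEVs (limma adjusted p = 0.0088), and its mean was at least 1.01-fold higher when set against the largest floor of nid-sEVs, 59.4 RPM. The size of the difference therefore could not be told at this depth. When limma was run on simulated reads with these library totals, nearly all of its false calls were entries like this, with no read in the shallower nid-sEV libraries. The simulation used the same setting of spread for every entry, so it cannot tell how often such a call is false in these data. In the pair of like depth it had 0 reads in nid-sEV library 1 and 8 reads in aid-sEV library 3. The call held in each of the 6 fits that left out 1 library, and the adjusted p was 0.049 by the edgeR quasi-likelihood test without a filter, 0.019 by the edgeR exact test and 0.024 by DESeq2. Its 5p partner had 3 reads in the nid-sEV group and 5 in the aid-sEV group. Pooled over the aid-sEV libraries, the 3p arm thus made up 60 of 65 reads of the hairpin, or 92.3%. By library this share was 90.0%, 94.1% and 100% in aid-sEVs. Only 3 reads of the hairpin were counted in nid-sEVs, so the arms could not be compared between the groups.

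mmu-miR-15b-3p, the partner of the 5p arm that outweighed miR-16-5p in aid-sEVs, stood at 38.7, 0 and 0 RPM (5, 0 and 0 reads) in nid-sEVs and at 125, 111 and 213 RPM (65, 39 and 26 reads) in aid-sEVs. Its log2 fold change was 5.40 with an SE of 1.60 (limma adjusted p = 0.070), so it was not called. The estimate was 2.85 to 3.49 by edgeR and DESeq2, and the adjusted p was 0.066 and 0.089 by the edgeR quasi-likelihood test with and without a filter, 0.036 by the edgeR exact test and 0.040 by DESeq2. In limma it was 0.0049 without nid-sEV library 1 and 0.13 to 0.20 when any other library was omitted. Both arms of the hairpin were thus highest in aid-sEV library 3. Its 3p arm held 16.9%, 9.05% and 11.1% of the hairpin's reads in aid-sEV libraries 1, 2 and 3. The 95% Wilson intervals were 13.5% to 21.0%, 6.69% to 12.1% and 7.66% to 15.7%. In nid-sEV library 1 the share was 5.68% of 88 reads (interval 2.45% to 12.6%). nid-sEV libraries 2 and 3 held 0 and 1 reads of the hairpin, so the nid-sEV share rested on library 1. Pooled over libraries, the share was 12.4% of 1050 reads in aid-sEVs and 5.62% of 89 reads in nid-sEVs.

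mmu-miR-195a-3p stood at 0, 15.2 and 0 RPM (0, 1 and 0 reads) in nid-sEVs and at 32.7, 39.7 and 24.5 RPM (17, 14 and 3 reads) in aid-sEVs, with a log2 fold change of 3.69 and an SE of 1.33 (limma adjusted p = 0.13). By library, the 3p arm held 42.5%, 66.7% and 37.5% of 40, 21 and 8 reads of the hairpin in aid-sEVs. In nid-sEVs it held 0%, 12.5% and 0% of 4, 8 and 8 reads. Pooled over libraries, the share was 49.3% of 69 reads in aid-sEVs and 5.0% of 20 reads in nid-sEVs. The estimates of its 5p and 3p arms thus had opposite signs, and neither arm was called. mmu-miR-16-1-3p, which unlike miR-16-5p comes from the Dleu2 locus alone, had no read in nid-sEVs, and aid-sEV libraries 1, 2 and 3 held 0, 3 and 2, which is under the highest nid-sEV floor, so no fold is given (limma adjusted p = 0.22). It passed in limma without aid-sEV library 1 (adjusted p = 0.018), and its adjusted p was 0.33 and 0.50 by the edgeR quasi-likelihood and exact tests without a filter. mmu-miR-322-3p and mmu-miR-503-3p had 5 and 7 reads in all 6 libraries together and were not called.

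**Figure D3:**
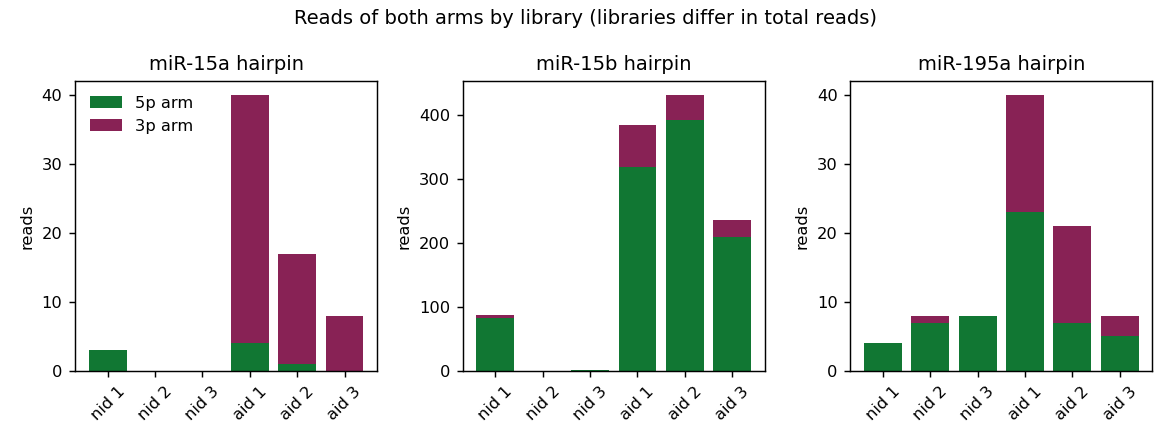
Reads of the 5p arm (green) and 3p arm (purple) of 3 hairpins, stacked for each library, in reads that are not scaled for the unequal totals of the libraries. The miR-15a hairpin is read almost only as its 3p arm in aid-sEVs (60 of 65 reads), and the miR-15b hairpin mostly as its 5p arm (920 of 1050 reads).

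**Figure D4:**
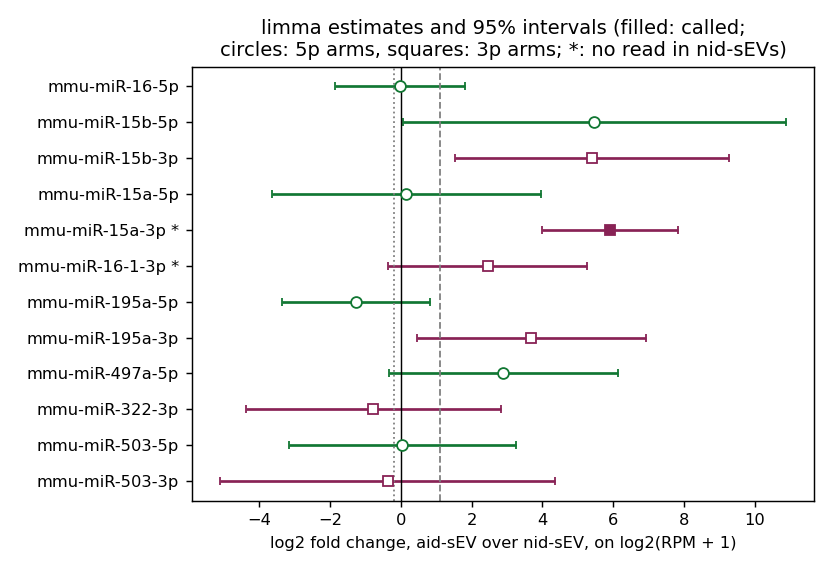
Log2 fold change of aid-sEVs over nid-sEVs on log2(RPM + 1) (horizontal axis) with 95% limma intervals for 5p arms (circles) and 3p arms (squares), filled where called. The dashed line marks the median of all 718 entries (1.11), the dotted line the median of the 219 entries seen in every library (-0.21), and an asterisk marks an arm without a read in nid-sEVs, whose estimate depends on the added 1 RPM.

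miR-322 and miR-503 share their X-linked cluster with miR-351, miR-542, miR-450a and miR-450b, and 4 of the 9 named arms of these were listed. None was called in either direction by limma, 1 had an unadjusted p under 0.05, and the median log2 fold change was -1.95. That one was mmu-miR-351-5p, which stood at 77.4, 365 and 59.4 RPM (10, 24 and 3 reads) in nid-sEVs and at 11.6, 36.9 and 16.4 RPM (6, 13 and 2 reads) in aid-sEVs. It was lower in every aid-sEV library, as were 7.52% of entries, with a log2 fold change of -2.57 and an SE of 0.96 (limma adjusted p = 0.14). The adjusted p was 0.038 by DESeq2, 0.19 by the edgeR quasi-likelihood test without a filter and 0.18 by the edgeR exact test.

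mmu-miR-103-3p and mmu-miR-107-3p are metabolic miRNAs of a separate family that hold the hexamer AGCAGC of the miR-15/16 seed 1 base nearer to the 5′ end. mmu-miR-103-3p stood at 619, 1035 and 237 RPM in nid-sEVs and at 350, 514 and 417 RPM in aid-sEVs (log2 fold change -0.34, SE 0.65, limma adjusted p = 0.78). mmu-miR-107-3p had a log2 fold change of -0.57 with an SE of 1.05 (limma adjusted p = 0.77). The groups overlapped for both, as they did for the members of the miR-15/16 family.

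miR-16-5p is often used to scale vesicle miRNA measurements, so its spread was set beside that of other candidate references. Its coefficient of variation over the 6 libraries was 77.7%, above the median of 65.0% over the 219 entries seen in every library. Within groups it was 101% in nid-sEVs and 25.5% in aid-sEVs, and the highest library held 5.75 times the lowest. Of the 7 other candidates detected in all libraries, let-7a-5p (46.4%), miR-26a-5p (43.0%), miR-93-5p (45.4%), miR-103-3p (53.1%), miR-191-5p (61.1%) and miR-484 (72.0%) had lower coefficients. The coefficient of miR-423-5p was higher, at 108%. let-7a-5p, miR-26a-5p, miR-191-5p and miR-484 were higher in every aid-sEV library, as were 24.2% of entries. miR-423-5p was lower in every aid-sEV library, as were 7.52% of entries. Of the candidates, miR-484 was called higher in aid-sEVs by limma, and miR-16-5p had the smallest log2 fold change in size. A small difference of means thus went with a wide spread in nid-sEVs.

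The entries whose pattern over the 6 libraries was nearest to that of miR-16-5p were mmu-miR-30b-5p, mmu-miR-23a-3p, mmu-let-7j, mmu-let-7g-5p and mmu-miR-7a-5p. Likeness was the mean absolute difference of log2(RPM + 1) after each entry was centred on its own mean, over 6 libraries and 218 compared entries. The distances were 0.32, 0.41, 0.44, 0.48 and 0.50, against a median of 1.08. The family member miR-195a-5p, with the sequence closest to miR-16-5p, came 162nd among them. The libraries held only 4 to 23 reads of miR-195a-5p, and the part of counting error in that distance was not tested.

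**Figure D5:**
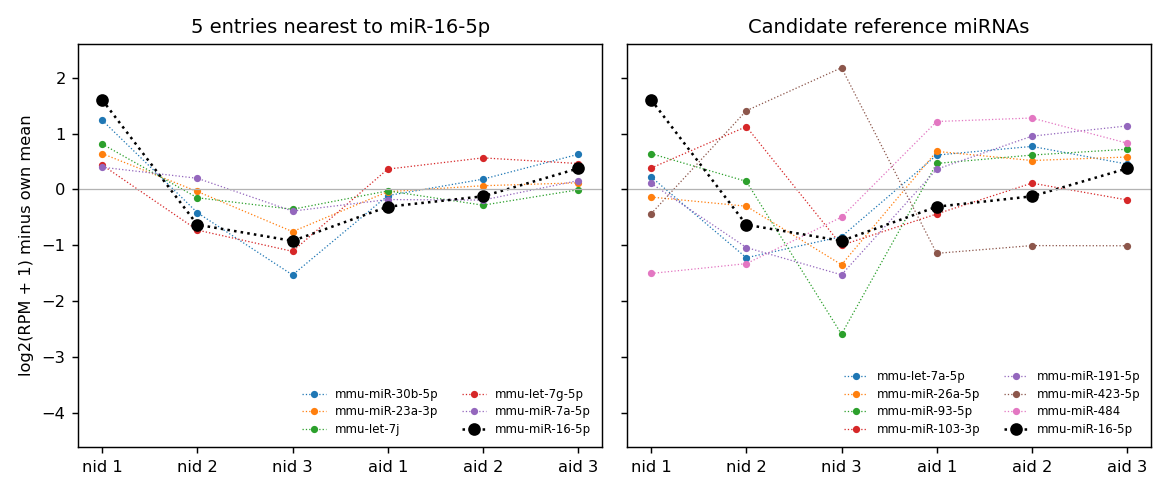
log2(RPM + 1) minus its own mean over the 6 libraries (vertical axis) for miR-16-5p (black) with the 5 nearest entries (left) and with the 7 candidate references detected in all libraries (right). Dotted lines only join the points of an entry, and miR-16-5p is highest in nid-sEV library 1 in both panels.

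Red cells are known to be rich in miR-16 together with miR-451a and miR-486. The summed level of the 5 red cell markers was 12884, 4644 and 4274 RPM in nid-sEVs and 728 to 1541 RPM in aid-sEVs. Of these markers, 1 of 5 was called lower (miR-486a-5p) and 2 of 5 were lower in every aid-sEV library. Over all entries, 1.81% were called lower and 7.52% were lower in every aid-sEV library. miR-144-5p was at 0 in all aid-sEV libraries and had 17, 2 and 0 reads in nid-sEVs. nid-sEV library 1 thus had the highest red cell sum and the highest miR-16-5p. The mesenchymal, endothelial and acinar sums given below were also highest in nid-sEV library 1. The leukocyte sum was highest in nid-sEV library 3, and miR-122-5p in nid-sEV library 2. The sum of 5 leukocyte markers was 152 to 435 RPM in nid-sEVs and 24.5 to 38.5 RPM in aid-sEVs, with 1 called lower. The liver marker miR-122-5p was 396 to 3000 RPM in nid-sEVs and 24.5 to 42.6 RPM in aid-sEVs, and was called lower. Sums of mesenchymal markers (5383 to 24080 and 4480 to 11623 RPM), endothelial markers (989 to 3717 and 679 to 1325 RPM) and acinar markers (2533 to 8997 and 698 to 3370 RPM) overlapped, with 0 of 5, 0 of 2 and 0 of 3 called. The endocrine markers, miR-375-3p, miR-7a-5p and miR-7b-5p, summed to 73913 to 357997 RPM in nid-sEVs and 161566 to 184327 RPM in aid-sEVs, with nid-sEV library 1 lowest. Of these 3 markers miR-7b-5p was called higher in aid-sEVs, with 3578 to 3933 RPM in nid-sEVs and 11764 to 14825 RPM in aid-sEVs (log2 fold change 1.84, limma adjusted p = 0.010). Of all entries, 15.6% were called higher. The log2 fold changes of miR-375-3p and miR-7a-5p were 0.08 and -0.14 (limma adjusted p = 0.95 and 0.81), and the groups overlapped for both. The part of these cell types, and of depth, in the levels of miR-16-5p and in the balance of miR-15b-5p and miR-16-5p was not tested, and fewer vesicles of a kind and less of a miRNA per vesicle cannot be told apart in such libraries.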

How the data were processed

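Small RNA of islet sEVs was sequenced once for each of 3 nid-sEV and 3 aid-sEV libraries (NEBNext small RNA kit, Illumina NovaSeq, processing by a company). The submitters' processing notes name fastp 0.23.0, HISAT2 2.2.1 and GRCm38. The read counter and the miRNA reference are not given in the sources used here. The authors deposited RPM for 718 entries, relative to each library's total. Their own comparison columns (log2 fold change, mean abundance, p-value, false discovery rate and a call) were not used. The table held 0 other per-sample columns.

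The smallest RPM above 0 in a library was taken as 1 read, and 100% of values came out whole within 0.01 read. Totals ran from 50534 to 519315 reads. 95% Wilson intervals and floors of 3 reads cover counting error only. Libraries were grouped by their diet labels. The study states in general that its experiments had biological replicates, and the labels do not tie a library to an animal or pool, so p-values measure the spread between these libraries.

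limma 3.58.1 in R 4.3.3 (lmFit, eBayes with trend) was run on log2(RPM + 1) over all 718 entries and the model held only the sEV group. An entry was called where its p, adjusted by Benjamini-Hochberg, was below 0.05 and its log2 fold change was beyond 1 either way. Such fold changes can understate the change of low entries, and can exceed count-model estimates where a library is at 0. Ratios to miR-16-5p were tested by exact permutation in scipy 1.17.1. edgeR 4.0.16 and DESeq2 1.42.0 on the recovered reads, other pseudocounts, filters and scalings, a replicate block and leaving out each library were alternatives. Scripts were tested on simulated data.

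Named entries were the members, the 3p arms of their hairpins, the X-cluster neighbours, listed entries with the family seed, miR-103-3p and miR-107-3p, the 5 entries nearest to miR-16-5p, candidate reference miRNAs and marker lists. Members and lists were chosen with earlier results of these data known. Sequences are from RefSeq (GRCm38.p6) and loci from GENCODE M21 (GRCm38).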

Additional observations from a re-analysis of the deposited data

How the results depend on the processing

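Library totals differed between the groups, and 4 of 6 members had libraries at 0 reads. The part of depth in these values of 0 was not tested. The count of members called higher was 0 in every setting run except without nid-sEV library 1, where it was 2 (leave-one-out range 0 to 2). In that setting 150 of 718 entries were called higher. The count of members called lower was 0 throughout. Leaving out each library in turn gave log2 fold changes of 3.19 to 7.85 for miR-15b-5p, 2.23 to 4.25 for miR-497a-5p, -0.50 to 0.76 for miR-16-5p, -0.61 to 1.69 for miR-15a-5p and -1.04 to 1.08 for miR-503-5p. It gave -1.54 to 0.76 for miR-322-3p, -1.42 to 1.71 for miR-503-3p and -2.22 to 0.91 for miR-351-3p. The ratio to miR-16-5p ranged from -0.67 to 1.23 for miR-15a-5p and from -1.06 to 0.82 for miR-503-5p.

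The sign turned in other settings too, and the cause was not tested. miR-16-5p was at 0.46 with TMM factors and 0.14 after centring on entries seen in every library. miR-15a-5p was at -0.18 with 10 RPM added, -0.69 by either edgeR test without a filter and -1.27 by DESeq2, and its ratio to miR-16-5p was -0.14 with 10 RPM added. miR-503-5p was at -0.11 over miRBase-named entries and -0.42 by DESeq2, and miR-503-3p was at 0.56 with 0.1 RPM added. The log2 difference of the summed family level was 0.98, and 2.22 without miR-16-5p. It was 1.48 with TMM factors and ranged from 0.58 without nid-sEV library 3 to 1.77 without nid-sEV library 1.

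Same-numbered libraries had deviations correlated at -0.054, 0.13 and -0.11, and the labels state no pairing, so the numbers were not taken as pairs. With the replicate block, which leaves every log2 fold change as it was by construction, miR-15b-5p (5.47) had a limma adjusted p of 0.17, miR-15a-3p had an adjusted p of 0.086, and calls over all entries went from 112 higher and 13 lower to 0 and 0. Calls higher and lower over all entries were 62 and 9 with 10 RPM added, 110 and 8 with 0.1 RPM added, 69 and 9 at a mean RPM of at least 10, 23 and 15 among entries detected in all libraries, and 124 and 3 with TMM factors. They were 48 and 21 by the edgeR quasi-likelihood test with a filter, 56 and 7 without, 61 and 15 by its exact test and 65 and 50 by DESeq2. Leaving out each library gave 33 to 150 higher and 1 to 26 lower, with 33 and 1 without nid-sEV library 2 and 150 and 26 without nid-sEV library 1. DESeq2 gave no adjusted p for miR-15a-5p, miR-497a-5p and miR-503-5p.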
